A study of Tribolium castaneum with 8 samples.

Results

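The 6 genes described here, of the red flour beetle Tribolium castaneum, were taken from 14422 genes listed in at least 1 RNA library. They are the 4 protein kinase genes that carry the word testis in the orthology name of the deposited tables (TC007244, TC009447, TC010125 and TC012191), a tektin gene (TC005997) and the gene named tubulin beta 2 (TC009035). They were chosen by name with earlier results of these libraries in view, above all their high adult levels, so their stage profiles are a description and no test is attached to them. The libraries hold polyadenylated RNA of whole bodies of the strain GA-1, a laboratory strain reared at 30 °C on wheat flour with yeast, and there is 1 library per stage. The animals were embryos of 3 days, late larvae of about 20 days, pupae of 3 days and adults of 3 days, and no genetic or chemical treatment was given. The labels give neither the sex of the animals nor the number pooled for RNA, and no testis was dissected, so the tissue in the names could not be checked.

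Testis-specific serine kinases, called TSSK, are a small family best known from mammals, where they act in haploid germ cells as these reshape into sperm. TESK kinases share the word testis in their name but form a separate family that acts on the actin cytoskeleton. Tektins are filamentous proteins built into the paired microtubules of cilia and sperm tails. Beta-tubulin is a subunit of microtubules, and in the fruit fly Drosophila melanogaster the isotype beta-2 is made in the male germ line, where it builds the sperm axoneme, the microtubule core of the tail.

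The libraries held between 3.09 M and 3.67 M unique reads in genes, and the median listed gene had 71 to 90 reads. Levels are given in RPKM, reads per kilobase of gene model, scaled to the reads of the library. In the larval library 3 reads were worth between 0.425 and 0.852 RPKM for these 6 genes, which is the floor used here for a count of 0. With 1 library per stage there is no replicate spread and no p-value. All intervals are 95% counting intervals, which leave out differences between animals and the effect of amplification. In whole bodies, more cells of a type and more RNA per cell cannot be told apart. Hexamerin 1B (TC005377), a larval storage protein, stood at 20317 RPKM in the larval library and at 11.2 to 56.6 in the others, and a rhodopsin (TC013765) at 137 RPKM in the adult library and at no more than 4.92 in the others.

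The names of the 6 genes differ in how well they are supported. TC009447 matches the RefSeq gene Tssk, TC012191 the gene cdi and TC005997 the gene Tektin-A of the assembly icTriCast1.1, while TC010125 and TC009035 match RefSeq genes without a symbol. TC007244 matched no RefSeq entry, and its kinase name rests on a honey bee protein in the orthology field. The description field names TC009447 after CG14305, a TSSK gene of Drosophila, and TC012191 after center divider, a Drosophila TESK kinase named for its activity in midline cells of the embryonic nervous system. The orthology field calls the tektin a ribosomal S6 kinase on a weak match of 63.2 bits, so its name here comes from the protein description. In the deposited ontology terms the 3 TSSK genes share serine/threonine kinase activity and protein modification. TC012191 carries a term for embryo development, and the tektin and the tubulin share the microtubule cytoskeleton. None of the 6 has a term for sperm or testis. Whether TC009035 is the counterpart of the Drosophila isotype beta-2 was not tested, and the name is shared by label only.

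Of the 6 genes, 5 had 0 to 17 reads in the embryo and larval libraries and their highest level in the adult. The adult level was the highest for 26.8% of all 14422 genes listed. The TESK kinase stood at similar levels throughout. Beta-2 tubulin had the highest level, at 0.229, 1.45, 90.1 and 919 RPKM from embryo to adult. The adult value made it the 107th most abundant gene of that library, above 99.2% of the genes listed there. Its reads numbered 1, 7, 446 and 3822 in the same order. The adult level was 10.2 times the pupal one (9.24 to 11.3) and 633 times the larval one (307 to 1575). The pupal level was 62.0 times the larval one (29.9 to 155), so both late steps were wider than their counting intervals. Against the embryo the adult ratio was 4018 (721 to 158741), an interval that wide because it rests on 1 embryo read.

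The 3 TSSK genes had a like course at lower levels. TC009447 had 0 reads in the embryo library, with a counting interval up to 1.08 RPKM, and 4 reads in the larva, or 1.07 RPKM. Its pupal level was 15.0 RPKM and its adult level 304. Its adult level was 20.2 times the pupal one (15.5 to 26.8), and the pupal level was 14.1 times the larval one (5.23 to 53.6). Against the embryo the lower end of its counting interval was 280-fold higher in the adult. With the floor of 3 reads in the embryo library the ratio was 346. The interval of its pupa-to-adult ratio lay above those of beta-2 tubulin and the tektin and overlapped those of the other TSSK genes.

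TC010125 was listed with 3, 1, 29 and 411 reads from embryo to adult, or 0.940, 0.284, 8.02 and 135 RPKM. The adult level was 16.9 times the pupal (11.6 to 25.5) and 144 times the embryonic (48.9 to 701). The embryo and larval values could not be told apart, with an embryo-to-larva ratio of 3.31 (0.266 to 174). TC007244 had 0 reads in both the embryo and the larval library, 24 in the pupa (6.00 RPKM) and 240 in the adult (71.4). The lower end of its counting interval was 74.8-fold for adult over larva and 67.9-fold for adult over embryo. With the floor of 3 reads in place of 0 these ratios were 92.7 and 84.1. Its adult level was 11.9 times the pupal (7.81 to 18.9). The 3 genes together had 3, 5, 111 and 1637 reads from embryo to adult, and TC009447 made up 51.7% of their summed RPKM in the pupa and 59.5% in the adult.

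The tektin differed from the other late genes in the embryo. It stood at 3.51, 0.187, 8.38 and 91.3 RPKM from embryo to adult, on 17, 1, 46 and 421 reads. The embryo level was 18.7 times the larval one (2.94 to 783), so the larval library was the lowest of the 4 beyond counting error. The adult level was 10.9 times the pupal (8.02 to 15.1) and 26.0 times the embryonic (16.1 to 45.1). The embryo was also the library in which the tektin lay above every other late member, 3.73 times TC010125 per kilobase (1.08 to 19.9).

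TC012191, the TESK kinase, did not share this course. It had 212, 150, 254 and 184 reads from embryo to adult, or 33.1, 21.2, 35.0 and 30.2 RPKM. Its lowest level was 60.6% of its highest, against 0.210% or less for each of the other 5. The larval library was lower than the embryo, by a factor of 1.56 (1.26 to 1.93), and lower than the pupa, with a pupa-to-larva ratio of 1.65 (1.34 to 2.03). After median-ratio rescaling, however, its larva-to-embryo difference was 0.00 on the log2 scale, against -0.62 as deposited. The adult-to-pupa ratio of 0.862 (0.709 to 1.05) and the adult-to-embryo ratio of 0.912 (0.745 to 1.12) both spanned equality. It was thus present in the embryo and larval libraries, where the 3 TSSK genes together had 3 and 5 reads, and whole bodies do not tell in which tissue.

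**Figure D1:**
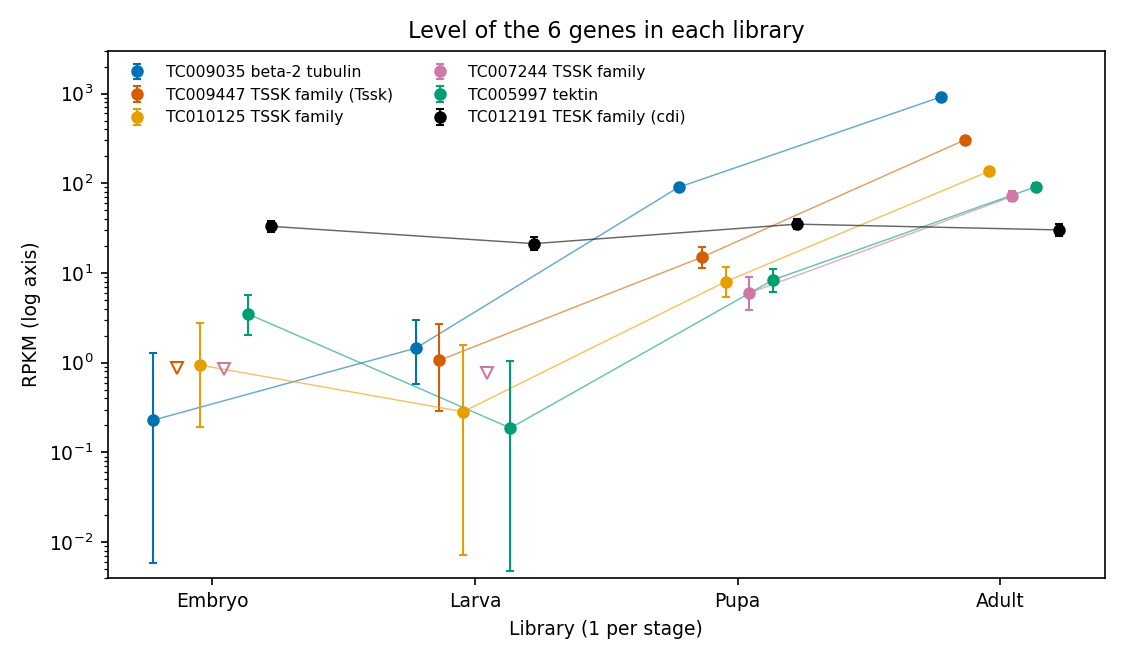
The level of each of the 6 genes in RPKM (log axis) in the 4 libraries, 1 per stage. Points are deposited values, bars are 95% counting intervals, open triangles mark 0 reads at the floor of 3 reads, and lines join the libraries of a gene. TC012191 stays between 21.2 and 35.0 RPKM, and the other 5 genes lie at or below 3.51 in embryo and larva and between 71.4 and 919 in the adult.

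The share of each gene model covered by reads followed the counts. In the adult library between 96.9% and 99.8% of each of the 6 models was covered, and the depth along the models is not given by this measure. In the pupa the range was 62.3% for TC007244 to 97.4% for TC012191. The 7 larval reads of beta-2 tubulin covered 22.9% of its model, and its single embryo read 3.64%. The models are 984 to 1974 bases long, beside a median of 1104 over all listed genes.

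The order of the levels per kilobase changed between stages. In the embryo TC012191 was highest and the tektin next, 9.44-fold apart (5.76 to 16.5). In the larva TC012191 stood 14.6-fold above beta-2 tubulin (6.92 to 37.0), and no neighbouring pair among the remaining genes with reads differed beyond counting error. In the pupa beta-2 tubulin was first, 2.57-fold above TC012191 (2.20 to 3.01), which stood 2.33-fold above TC009447 (1.75 to 3.15). Next came the tektin, TC010125 and TC007244, and neither neighbouring pair of these differed beyond counting error. In the adult all 5 neighbouring pairs differed beyond counting error. Beta-2 tubulin stood 3.02-fold above TC009447 (2.82 to 3.24), followed by TC010125, the tektin and TC007244. The lowest was TC012191, the 1 gene of the 6 not highest in the adult, 2.36-fold below TC007244 (1.94 to 2.88).

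At each step between consecutive stages a gene was counted from a 2-fold difference in (RPKM + 1) on, among genes with at least 1 RPKM in either library. The added 1 shrinks differences of weakly expressed genes. From embryo to larva 4 of the 6 passed the filter on low values. Of these, 1 was counted as higher, TC009447 on 4 larval reads, beside 18.6% of all 12179 genes tested, and 1 as lower, the tektin, beside 34.2%. Beta-2 tubulin lay just under the threshold, at 0.997 on the log2 scale. From larva to pupa 5 of 6 were higher and 0 lower, beside 22.7% and 14.2% of 12280 genes tested. From pupa to adult 5 of 6 were higher and 0 lower, beside 22.8% and 15.6% of 12713. Over longer spans the same 5 genes were higher in the pupa than in the embryo (16.2% of all genes tested), in the adult than in the larva (23.3%) and in the adult than in the embryo (25.1%). The same 5 were restricted to the adult, defined as at least 5 RPKM there and a 4-fold margin in (RPKM + 1) over the next highest library, as were 7.51% of 11621 genes that reached 5 RPKM in any library. Because the genes were chosen with these levels known, nothing is read from the counts.

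Beta-2 tubulin was next set against the other tubulin genes, which share its fold and assemble with it. The tables name 5 genes as beta-tubulins. Beta-2 made up 0.0102% of their reads in the embryo (exact Clopper-Pearson interval 0.000257% to 0.0566%) and 0.105% in the larva (0.0422% to 0.216%). Its share was 4.12% in the pupa (3.75% to 4.51%) and 52.4% in the adult (51.2% to 53.5%). The 4 intervals did not overlap apart from those of embryo and larva. In the adult library it thus outnumbered beta-1 tubulin (TC009589), the main isotype of the other 3 libraries, whose share of beta-tubulin reads was 60.5%, 77.6%, 62.7% and 41.4% from embryo to adult. TC009590, a beta-tubulin without a name of its own, went the other way, from 707 RPKM in the pupa to 52.6 in the adult. Only unique reads were counted, so reads that match several tubulin genes are missing from these shares.

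A second beta-tubulin gene, TC011969, had 0 reads in embryo and larva, 7.60 RPKM in the pupa and 37.1 in the adult. Among the 4 alpha-tubulin genes, the partners of beta-tubulin, TC011027 stood at 6.99, 0.845, 29.6 and 402 RPKM from embryo to adult, and its share of the summed alpha-tubulin RPKM was 0.309%, 0.0534%, 1.03% and 19.9% in the same order. TC000273, named tubulin alpha 6, stood at 1.63, 0.422, 8.01 and 102 RPKM. Both were lowest in the larval library, as was the tektin, on 4 larval reads for TC011027 and 2 for TC000273, against 30 and 7 in the embryo. From embryo to larva 34.2% of all genes tested were lower. Alpha-tubulin 1 (TC004873), the most abundant tubulin of all libraries, was at 2094, 1495, 2514 and 1443 RPKM from embryo to adult. Of the 11 other tubulin genes 5 were higher and 2 lower from pupa to adult, beside 22.8% and 15.6% of all genes tested. Their median log2 difference was 0.47, beside -0.09 over all genes tested. Those 5 were TC000273, TC011027, TC011969, TC010829 and the epsilon-tubulin TC004947, a protein of centrioles, which stood at 4.82 RPKM in the pupa and 14.5 in the adult.

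**Figure D2:**
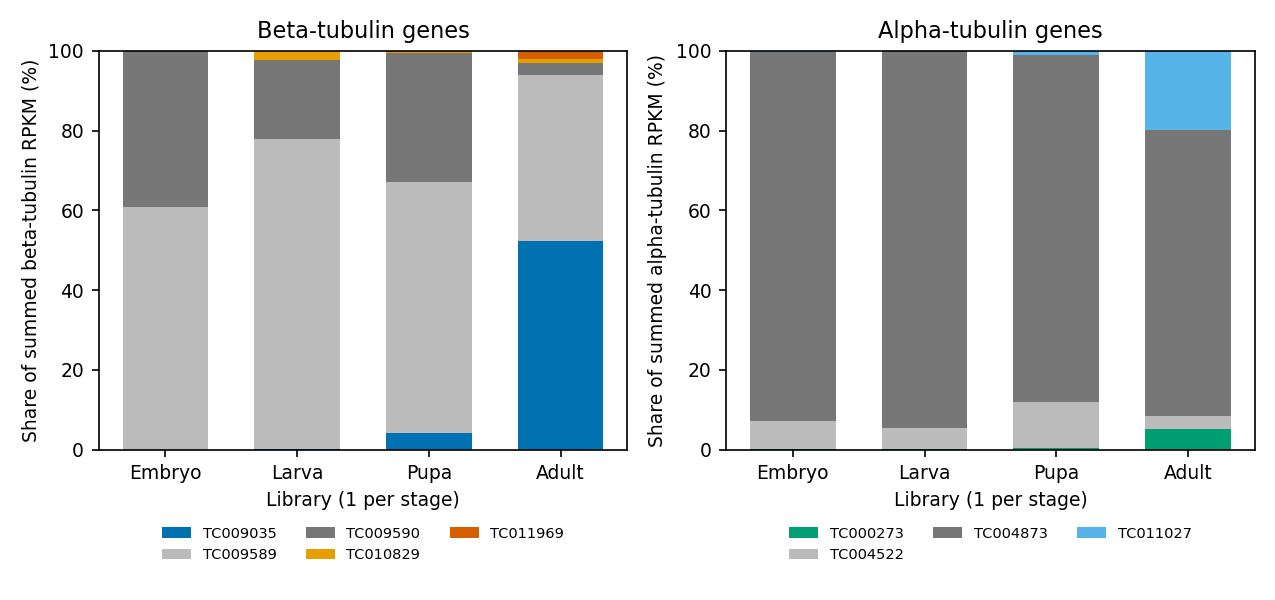
Share of the summed RPKM of the 5 beta-tubulin genes (left) and the 4 alpha-tubulin genes (right) taken by each gene in each library. TC009035, beta-2 tubulin, takes 4.13% of the beta-tubulin level in the pupal library and 52.3% in the adult library.

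The 4 kinases were placed among all genes with protein kinase in a name, a list of 164 others that also holds kinase regulators and ion channels with a weak kinase match. From pupa to adult 28 of the 157 tested passed 2-fold upward and 15 downward, beside 22.8% and 15.6% of all genes tested, with a median log2 difference of -0.09, and that of all genes tested was -0.09 too. Ordered by that difference, TC009447 had rank 1 of 161 at 4.25, TC010125 rank 2 at 3.92 and TC007244 rank 3 at 3.37. Since these genes were chosen with their adult levels in view, the ranks are a description only. With a pseudocount of 0.1, an alternative added after seeing the data, the first 2 kept their ranks and TC007244 had rank 5 at 3.55, behind TC015457 at 3.71 and TC006146 at 3.55, both with ion channel names. TC012191 had rank 96 at -0.21. With a pseudocount of 1 the next in order were TC015457, whose further orthology names are ion channels, at 3.29, and TC002779, named after a striated muscle kinase, at 2.86. Of the 164 genes, 6 were restricted to the adult by the definition above, beside 7.51% of genes at 5 RPKM in any library. Those with no ion channel name were TC002779, at 32.9 RPKM in the pupa and 245 in the adult, and TC009470, a mitogen-activated protein kinase, at 9.89 and 71.5.

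**Figure D3:**
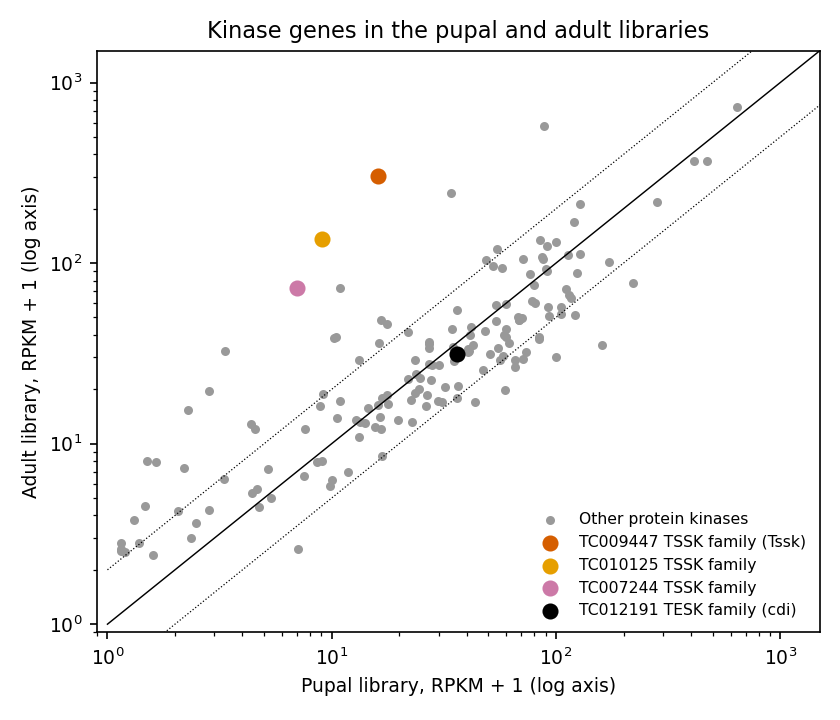
Level of 161 kinase-named genes in the pupal (horizontal) and adult (vertical) library as RPKM + 1, both axes log. The solid line marks equal levels and the dotted lines 2-fold differences. The 3 TSSK genes lie far above the upper dotted line and TC012191 next to the line of equality.

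Most genes of the axoneme and the sperm tail were highest in the adult library as well, 27 of 36, beside 26.8% of all 14422 genes listed. The list left out the tektin and held mostly axonemal dyneins, the motors that bend cilia and sperm tails. From embryo to larva 0 of 18 tested were higher and 11 lower, from larva to pupa 21 of 28 were higher and 0 lower, and from pupa to adult 23 of 34 were higher and 2 lower. Over all genes tested 18.6% were higher and 34.2% lower at the first of these steps, 22.7% and 14.2% at the next and 22.8% and 15.6% at the last. The 11 lower from embryo to larva became 6 after median-ratio rescaling or by the counting interval, 5 with a filter of 5 RPKM and 1 at 4-fold, and the 21 higher from larva to pupa became 9 with that filter and 6 at 4-fold. The median log2 differences were -1.14, 1.45 and 2.11, beside -0.62, 0.43 and -0.09 over all genes tested. Summed over the list the level was 363, 190, 417 and 915 RPKM from embryo to adult. Restricted to the adult were 18 of the 36, beside 7.51% of the 11621 genes that reached 5 RPKM in any library. The dynein intermediate chain TC008686 stood at 4.19, 0.507, 7.90 and 70.5 RPKM from embryo to adult. TC030654, with a dynein light chain among its names, had 0 larval reads and stood at 113 RPKM in the adult, and the inner arm dynein light chain TC011080 had 0 larval reads and 38.3 RPKM in the adult. The most abundant gene of the list, TC007515, did not share this course, at 173, 103, 175 and 125 RPKM. Its orthology field also holds names unrelated to dynein.

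**Figure D4:**
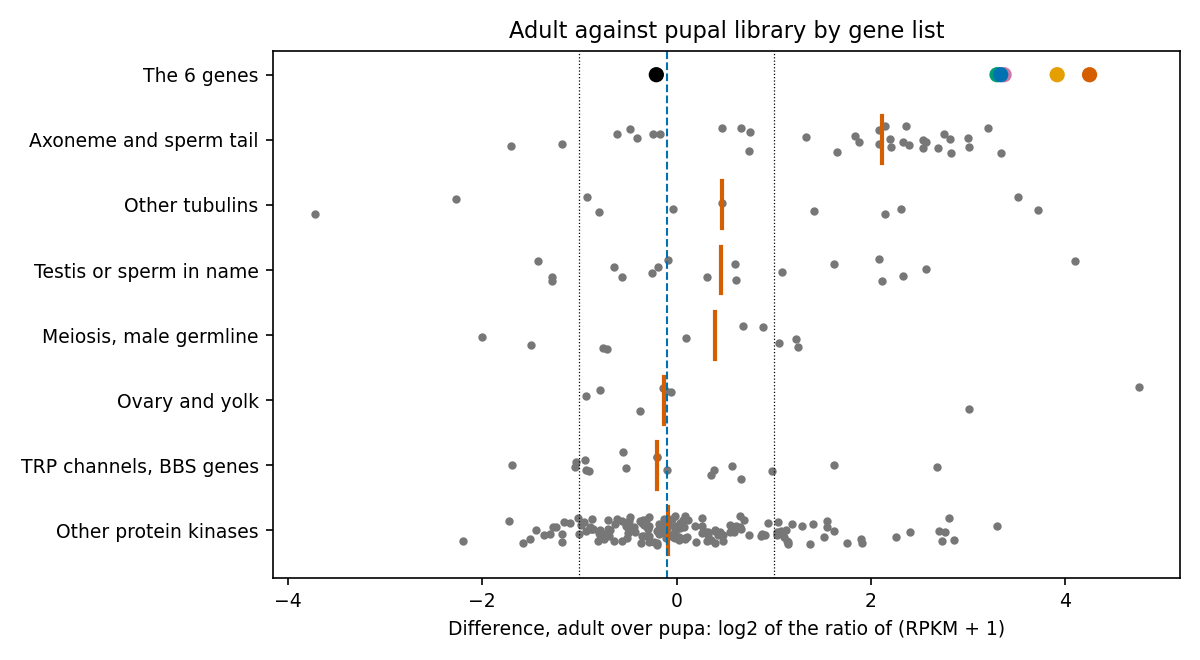
Difference between the adult and pupal libraries, as log2 of the ratio of (RPKM + 1), for the 6 genes (top, coloured as in the plot of levels) and for each tested gene of 7 lists matched by name (grey points). Vertical orange bars are list medians, the dashed line is the median of all genes tested at -0.09, and dotted lines mark 2-fold differences. Of the 6 genes, 5 lie between 3.30 and 4.25, beside a median of 2.11 for the axoneme list.

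The other lists, taken for cell types a whole body could hold, had smaller medians from pupa to adult than the axoneme list, between -0.20 and 0.46. A further 19 genes have testis or sperm in a name. From pupa to adult 7 of the 18 tested were higher and 3 lower, beside 22.8% and 15.6% of all genes tested. By name, 15 of the 19 are polyamine enzymes, a protease or a histone chaperone. The 4 without such names, set apart after their values were seen, held 3 that were higher, with a median log2 difference of 2.10. The higher ones include testis-specific gene A2 (TC007855), at 22.1 RPKM in the pupa and 136 in the adult. Another is testis development protein nyd-sp29 (TC004239), at 2.14 and 12.3. The orthology field calls it an axonemal dynein chain, and it is also counted in the axoneme list. Not higher was oocyte-testis gene 1 (TC011457), at 47.5 and 30.0. Of the polyamine enzymes, polyamine oxidase TC014317 went from 6.52 to 128 RPKM, and spermidine synthase (TC015179) went down, from 37.0 to 13.2. The spermine oxidase TC009166 stood at 0.198 and 0.235. The protease TC000494 was also lower in the adult, at 37.2 in the pupa and 14.7 in the adult.

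Genes of meiosis and the male germ line were higher in 3 and lower in 2 of 10 tested from pupa to adult, with a median log2 difference of 0.39, beside 22.8% and 15.6% of all genes tested. With names from the protein description alone the median was -0.31, with 2 higher and 2 lower, and by the counting interval or at 4-fold 0 were higher. Boule (TC015063), an RNA-binding protein that meiosis in Drosophila males requires, stood at 20.6, 17.9, 40.3 and 84.7 RPKM from embryo to adult. Twine (TC001885), a phosphatase that starts meiotic division in Drosophila, was instead highest in the embryo, at 105 RPKM, and stood at 11.8 in the adult. The summed level of the 12 genes was 322, 168, 295 and 270 RPKM in stage order.

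Genes named for the female germ line and yolk summed over 10 genes to 1103, 602, 732 and 673 RPKM in stage order. Most of the sum in each library was TC012217, named bicaudal but called a subunit of the nascent polypeptide-associated complex in the orthology field, at 811, 355, 458 and 439 RPKM. From pupa to adult 2 of 8 tested were higher and 0 lower, beside 22.8% and 15.6% of all genes tested. The median log2 difference was -0.13, beside -0.09 over all genes tested. Higher were bicaudal-C (TC005315), an RNA-binding protein of oocytes in Drosophila, at 0.122 and 29.3 RPKM, and the vitellogenin receptor (TC004042), the yolk uptake receptor of oocytes, at 0.616 and 12.0. Egalitarian (TC015348) stood lower in the adult, at 128 and 97.8, as did bicaudal D (TC009111), at 79.7 and 41.4, both within 2-fold. The yolk precursors named vitellogenin were at or near 0 in the adult, at 0.241 RPKM for TC010839 and 0.422 for TC013602. TC009851, listed as a putative vitellogenin but with a zinc finger protein in the orthology field, stood at 29.0. The part that the number of mature animals of each sex has in the levels of the 6 genes was not tested.

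Sensory neurons of insects also build cilia, and those of stretch receptors hold an axoneme. The list taken for them held 20 genes, of which 16 are TRP ion channels, sensory or not, and 4 are Bardet-Biedl syndrome genes of the cilium base, so its level does not stand for a sensory cilium. They summed to 134, 153, 171 and 128 RPKM in stage order. From pupa to adult 2 of 18 tested were higher and 3 lower, with a median log2 difference of -0.20, beside 22.8%, 15.6% and -0.09 over all genes tested. A pseudocount of 0.1 gave 4 higher and 5 lower, and median-ratio rescaling gave 3 higher and 1 lower. Nanchung (TC013928), a channel of stretch receptor neurons, stood at 7.86, 0.935, 2.16 and 1.76 RPKM. It was higher in the embryo than in the larva, as the tektin was, but its adult level lay below its embryo level. The 1 gene of the list that was restricted to the adult, the TRPC channel TC013866, stood at 0.130, 0, 1.95 and 17.9 RPKM. Among genes at 5 RPKM in any library 7.51% were so restricted.

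The genes most alike in profile were found among 3568 genes with an informative name and at least 5 RPKM in some library. Likeness was the Euclidean distance between log2(RPKM + 1) values over the 4 libraries, each profile centred on its own mean. The added 1 shrinks differences of weakly expressed genes, so the distance still depends partly on level. Between the members the closest pair was TC007244 and TC010125 at 0.57, and TC012191 lay at 4.30 or more from each of the others. Closest to TC007244 was a mitochondrial malate dehydrogenase (TC012844) at 0.10, an enzyme of the citric acid cycle, with 1.09, 0.989, 13.0 and 137 RPKM from embryo to adult. An HN1-like protein (TC016376) followed at 0.23 and adenylate kinase 1b (TC014052), which balances adenine nucleotides, at 0.24.

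For TC009447 the closest were a calponin-homology and microtubule-associated protein (TC010993) at 0.35, arylalkylamine N-acetyltransferase (TC001154) at 0.55 and a homolog of the phosphatase CDC14 (TC008603) at 0.57. TC010993 reached 618 RPKM in the adult from 33.4 in the pupa. For TC010125 they were a CAAX prenyl protease homolog (TC011281) at 0.36, a thioredoxin reductase (TC007865), an enzyme of redox balance, at 0.53 and a pyruvate kinase (TC006543), of glycolysis, at 0.53.

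Beta-2 tubulin had 2 genes within a distance of 1, a cockroach allergen-like protein (TC002436) at 0.51, with 105 RPKM in the pupa and 749 in the adult, and a leucine aminopeptidase (TC001175) at 0.92, with 107 and 1280. Next came a putative allergen (TC015814) at 1.43. The tektin was closest to the clock gene period (TC012997) at 0.77, to tubulin alpha 6 (TC000273) at 0.81 and to arrestin 2 (TC009551), which ends signalling of the photoreceptor, at 0.87. TC012191 had 1747 genes within a distance of 1, against 36 for TC007244, 24 for TC010125, 5 for the tektin, 4 for TC009447 and 2 for beta-2 tubulin. Its closest 3 were TC004849, a peroxisomal spermine and spermidine oxidase, TC008103, of the BRAF35/HDAC2 complex, and TC003078, an RBD protein, at 0.05 to 0.06. These distances describe 4 libraries and were not tested.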

How the data were processed

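RNA of whole bodies was sequenced in 4 libraries, 1 per stage. A further 4 bisulfite libraries were not analysed here. Per the labels' protocols, polyadenylated RNA was selected, cDNA was primed with random hexamers and no step marks the strand. SAMtools 0.1.19, BSMAP 2.73 and CASAVA 1.8.2 appear in the submitters' processing notes. No coordinates are printed, since the build, the RNA aligner and the annotation were not given in the sources used here. Per the file headers, the authors deposited counts of unique reads per gene model, the RPKM, the percent of the model covered and the model length. Counts summed to the header totals, and RPKM recomputed from them differed by at most 4.88e-15. Unlisted genes were taken as 0 reads. Members of families with near-identical copies, as may be the case for tubulins and dyneins, can be undercounted, by an amount not measured here. No strand means that antisense reads cannot be told apart.

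The members, the 7 name lists and the comparisons were chosen with earlier results of these data known. Differences are log2 ratios of (RPKM + 1). Ratios named as times or fold use RPKM alone, with intervals from the exact binomial distribution of the reads given their sum. For a gene with 0 reads a floor of 3 reads was used where stated, which leaves out the counting error of the other library. Lists were matched in the protein description or orthology name, and the 6 members were left out of them. Named genes were drawn from the 6 members, the 3 most alike genes for each, and from each list the 3 most abundant and the 2 with the largest step, all tubulins and all genes named testis or sperm. Further kinases, the vitellogenins, nanchung and TC013866 were named after their values were seen. Of the 6 members 5 matched RefSeq. No sequence was printed. The steps were tested on simulated data. Other settings are given in the closing section. The tools were scipy 1.17.1, numpy 2.4.6, matplotlib 3.10.9 and pandas 2.3.3 under Python 3.11.15.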

Additional observations from a re-analysis of the deposited data

How the results depend on the processing

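No paired analysis was possible because each stage has 1 library. From larva to pupa and from pupa to adult, 5 of the 6 genes were higher and 0 lower under the other settings tried. The other call rules were a pseudocount of 0.1, a filter of 5 RPKM, a 4-fold threshold, and a whole counting interval past 2-fold. The other scalings were median-ratio rescaling, totals without the 20 most abundant genes of each library and TPM scaling. Leaving out the filter could not change these counts, since a 2-fold difference in (RPKM + 1) already needs at least 1 RPKM. The embryo-to-larva counts, which rest on 0 to 17 reads, changed. The count of 1 higher became 2 with a pseudocount of 0.1, median-ratio rescaling, TPM scaling or totals without abundant genes, and 0 with a filter of 5 RPKM, a 4-fold threshold or the interval rule. The count of 1 lower became 0 with a filter of 5 RPKM or a 4-fold threshold. The axoneme list, 23 higher and 2 lower from pupa to adult, had 6 higher and 0 lower with names from the protein description alone, which leaves 9 genes, 0 lower at 4-fold and 1 lower by the interval rule. Of 72 differences of the 6 genes recomputed, 3 shifted by more than the mean arm of their counting interval on the log2 scale. An arm runs from the ratio to an end of its interval. Among the differences past 2-fold, 0 changed direction. The 3 that shifted were all under median-ratio rescaling. They were at 0.00 and 0.26 for TC012191 from embryo to larva and from larva to pupa, and at 3.56 for beta-2 tubulin from pupa to adult. Steps with 0 reads in a library have an open interval and could not be counted as shifted. These were both steps of TC007244 up to the pupa and embryo to larva for TC009447. With a pseudocount of 0.1, TC007244 went from 2.81 to 5.93 for larva to pupa. TC009447 went from 1.05 to 3.54 for embryo to larva. Rescaling moved the median of all genes from -0.62 to -0.03, from 0.43 to 0.01 and from -0.09 to 0.11 at the 3 steps. Removing polyamine enzymes, a protease and a histone chaperone from the testis or sperm list was chosen after seeing the data. It left 4 genes, with 3 higher and 0 lower from pupa to adult, beside 22.8% and 15.6% of all genes tested. Depth limits the embryo and larval values of 5 of the 6 genes, which rest on 0 to 17 reads each.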
